A study of Homo sapiens with 50 samples.

Results

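The TGF-β genes examined here were 2 ligands (TGFB1 and TGFB2), the type I and type II receptors (TGFBR1 and TGFBR2), the receptor-regulated and common SMAD proteins (SMAD2, SMAD3 and SMAD4), the inhibitory SMAD7 and PMEPA1, a target gene whose product dampens the pathway. They were taken by symbol, with every array probe that carries the symbol, and amount to 9 of 25940 gene names and 11 of 34127 probes, controls excluded. PMEPA1 was added because the study measured it by quantitative PCR after choosing it for its fold change in these same samples, so its direction here is not independent evidence.

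Total RNA came from H1299, an established line of human lung carcinoma (non-small cell) with inherent RAD9 levels, and from H1299shRAD9, the same line stably expressing a short hairpin RNA against RAD9, a DNA damage checkpoint gene. Each line gave 5 groups of 5 samples. CTL was sham irradiated at a dose of 0 Gy. DBP and DBN were cells directly hit by 1 Gy of α particles (4He ions), BP and BN the unirradiated bystander cells that shared their dishes, and all samples were taken at 4 h. Bystander cells were sorted into positive (BP) and negative (BN) by whether micronuclei, a sign of chromosome damage, had been induced in them, and DBP and DBN were the irradiated cells of the corresponding dishes, so these groups were selected on that outcome. The study used 2 stable transfectants interchangeably. Which of them gave each H1299shRAD9 sample is not in the labels, and the untransfected line received no control hairpin.

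TGF-β ligands are secreted in a latent form and are released from it by integrins, thrombospondin-1 and proteases. The active ligand brings together the type II and type I receptors, which phosphorylate SMAD2 and SMAD3. These join SMAD4, enter the nucleus and act on target genes, among them SMAD7 and PMEPA1, which feed back on the pathway. In carcinoma cells the pathway is known for growth arrest, matrix production and mesenchymal change, and TGF-β1 has been studied as a signal between irradiated and bystander cells.

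SMAD3 and SMAD4 contact a short DNA element known as the CAGA box, and its core, CAGACA on either strand, was searched in promoters of RefSeq (GRCh38.p14, 250 bases before to 50 after a transcription start). The 9 genes had 27 promoters in that table. The core was present in 5 of them, from PMEPA1, SMAD3, TGFB2 and TGFBR1 (2 promoters), against 16.9% of all 35116 promoters. The palindrome GTCTAGAC was present in 0.202% of all promoters and in none of the 27, and the AP-1 element TGACTCA, or TGAGTCA on the other strand, was in a promoter of SMAD3 and one of TGFBR2, against 4.95%. The PMEPA1 and TGFB2 promoters with the core are shown, each 5′ to 3′ on the strand of the gene, because PMEPA1 had the largest difference between the cell lines among the probes tested for the 9 genes and TGFB2 the largest after irradiation. Capitals mark the core. PMEPA1 lies on the minus strand at chr20:57710528-57710827, with the core at -115 from the start, and TGFB2 on the plus strand at chr1:218345086-218345385, with the core at -53. The match is a description of these letters only.

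PMEPA1: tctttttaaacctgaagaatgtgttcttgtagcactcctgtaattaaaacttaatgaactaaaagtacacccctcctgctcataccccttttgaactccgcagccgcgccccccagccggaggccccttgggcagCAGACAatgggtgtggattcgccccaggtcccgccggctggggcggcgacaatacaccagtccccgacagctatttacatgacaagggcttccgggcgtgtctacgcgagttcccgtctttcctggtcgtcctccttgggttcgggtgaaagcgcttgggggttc

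TGFB2: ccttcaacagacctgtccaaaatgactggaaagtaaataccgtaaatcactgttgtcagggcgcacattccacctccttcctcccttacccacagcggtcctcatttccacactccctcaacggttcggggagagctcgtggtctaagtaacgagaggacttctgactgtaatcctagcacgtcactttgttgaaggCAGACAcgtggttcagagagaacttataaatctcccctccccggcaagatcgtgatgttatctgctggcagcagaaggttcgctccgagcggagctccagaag

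RNA was labeled with Cy3 and hybridized to Agilent whole-genome arrays, 1 sample per array, 50 arrays in all. Levels are log2 of the processed intensity minus the median of the array, so 0 is the median probe, and levels of different probes are not compared. The scanning software marked 59.7% to 83.2% of probes as well above background on the H1299 arrays and 55.1% to 73.0% on the H1299shRAD9 arrays. A feature (probe) was tested if it failed these marks, or those for outliers, on fewer than 25% of arrays, which left 20078 features and 10 of the 11 here. VIM, KRT8 and KRT18 were well above background on all 50 arrays. PECAM1 was seen on no more than 2 arrays, whereas 2 of 5 PTPRC probes were seen on all 50 at means of 0.57 and -0.41 and CD3E on 38 at -1.38. One of these PTPRC probes, A_33_P3309526, was higher in H1299shRAD9. It lay at 0.73 to 1.77 in H1299shRAD9 CTL and at -0.51 to 0.99 in H1299 CTL, was higher by 0.41 to 1.2 in the means of the 5 conditions, and was called over all conditions (0.80, limma adjusted p = 0.0078). The other differed by -0.22 to 0.16, CD3E by -0.54 to 0.54, and the other 3 PTPRC probes were seen on no more than 1 array. The part of these markers in the line differences was not tested. RAD9A, the targeted transcript, lay at 3.34 to 3.85 in H1299shRAD9 CTL and at 3.82 to 4.18 in H1299 CTL. Its difference of -0.36 (SE 0.117) missed the threshold (limma adjusted p = 0.0561), and over all 5 conditions it was -0.18 (adjusted p = 0.281). The study chose its transfectants by RAD9 protein, which it reported as strongly reduced by Western blot. The arrays measure the transcript only, so these values do not show the extent of the protein loss.

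Cell line and scan day were nearly the same split. The H1299shRAD9 arrays were scanned on days 1 to 3 and the H1299 arrays on days 4 to 6, apart from 2 H1299shRAD9 arrays scanned among H1299 arrays (DBN replicate 5 on day 4 and BP replicate 1 on day 6). No scan day or slide held the CTL arrays of both lines, so in CTL the line and the scan day cannot be told apart. The median log2 difference between the most 5′ and the most 3′ feature, over 3087 genes, had a median over arrays of -1.512 in H1299 and -1.569 in H1299shRAD9, and its part in the line differences was not tested. In bulk RNA, a change in the RNA of each cell and in the share of cells that make it also cannot be told apart. The test was limma, which fits a linear model per feature and pools variance information, and a feature was called at p under 0.005 between the lines in CTL and over all conditions, or p under 0.006 elsewhere, together with a Benjamini-Hochberg adjusted p under 10%.

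PMEPA1 was higher in unirradiated H1299shRAD9 than in H1299 cells by both of its probes, and it was the only one of the 9 genes called in that comparison. The probe A_24_P413126 (hg19 chr20:56223489-56223548, minus strand) read 2.15, 1.01, 1.41, 1.36 and 1.48 in the 5 H1299 CTL samples. In H1299shRAD9 CTL it read 3.41, 2.73, 2.40, 2.56 and 2.56. No H1299shRAD9 sample was as low as any H1299 sample, and replicate 1 was the highest in both lines. The difference was 1.25 (SE 0.227, 95% interval 0.76 to 1.75), or 2.38-fold (adjusted p = 0.00683). The probe A_33_P3403867 (chr20:56227094-56227153) read 1.52, 0.99, 1.42, 1.34 and 1.73 in H1299 and 2.90, 2.07, 2.09, 2.05 and 2.23 in H1299shRAD9. These groups did not overlap either, and the difference was 0.87 (SE 0.185), or 1.83-fold (adjusted p = 0.0128). Of all features 13% were called in this comparison, 6.9% as higher and 6.07% as lower in H1299shRAD9, and 7.09% lay higher there without overlap, so a call is not rare here. The 8 other genes were not called.

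The same order held across the irradiated and bystander groups. For A_24_P413126 the means of the 5 H1299shRAD9 groups lay between 2.19 and 2.76 and those of the 5 H1299 groups between 1.38 and 1.72. For A_33_P3403867 they lay between 2.27 and 2.51 and between 1.40 and 1.78. Within a line no gap between neighboring groups exceeded the larger SD of the pair, and the gap between the lines did so only for A_33_P3403867. Of all features, 38.4% had a higher mean in H1299shRAD9 in all 5 conditions. In BP the samples did not overlap by either probe (differences 1.38, adjusted p = 0.00964, and 0.75, adjusted p = 0.032), against 7.23% of features called, 4.56% as higher, and 5.88% higher without overlap. In DBP A_33_P3403867 was called (0.64, adjusted p = 0.0695, with 5.97% of features called) and A_24_P413126 was not (0.76, adjusted p = 0.108). Neither probe was called in DBN (0.60 and 0.61, with 2.47% called) or in BN (0.95 and 0.78, with 8.25% called). In BN 1 H1299 sample, replicate 2, read 3.11 and 2.97, above every other H1299 sample by both probes.

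**Figure D1:**
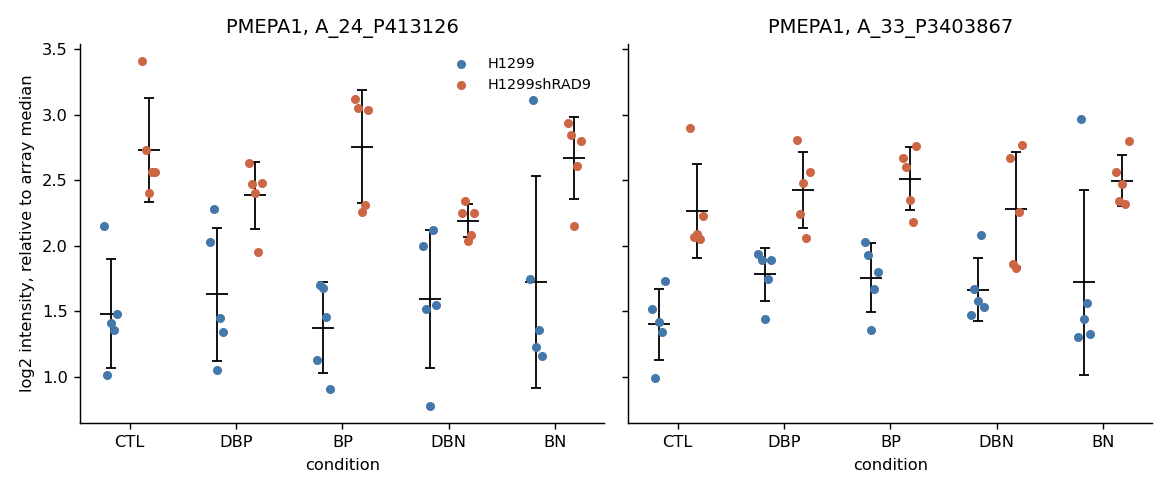
Level of PMEPA1 by its 2 probes (vertical axis, log2 intensity relative to the array median) in CTL, DBP, BP, DBN and BN. Each point is 1 sample, with 5 per group, horizontal lines are means and bars are SD. In CTL and BP all H1299shRAD9 points lie above all H1299 points, and 1 H1299 BN sample lies near 3 in both panels.

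With all 5 conditions in one fit, and samples of one line and replicate number allowed to be alike, the difference in PMEPA1 was 0.99 (SE 0.178, 1.98-fold, adjusted p = 4.39e-05) by A_24_P413126 and 0.73 (SE 0.146, 1.66-fold, adjusted p = 0.000187) by A_33_P3403867. In this fit 21.4% of all features were called, 13.6% as higher and 7.81% as lower in H1299shRAD9. With scan day as a fixed term the PMEPA1 difference was 1.23 (adjusted p = 0.0356) and 1.24 (adjusted p = 0.00409), and with slide 1.29 (adjusted p = 0.0211) and 1.06 (adjusted p = 0.021). Scan day or slide took the place of the block for line and replicate number in these fits. Samples of one line and number were thus treated as independent, which can make the p-values too small. Dropping that block alone raised the features called from 4302 to 7892. The fits with scan day or slide rest on the 2 H1299shRAD9 arrays scanned beside H1299 arrays. DBN replicate 5 read 2.25 and 2.77, where the 10 H1299 arrays of its day ran from 1.16 to 2.12 and from 1.33 to 2.08. BP replicate 1 read 3.12 and 2.67, where the 3 H1299 arrays of its day ran from 0.91 to 2.0 and from 1.3 to 1.8. Both arrays were above all H1299 arrays of their day.

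The ligands and receptors gave no call over all conditions. TGFB1, the main ligand of epithelial tumors (chr19:41838142-41847802, minus strand, a probe across a splice junction), was 4.95 ± 0.29 (SD, n = 5) in H1299 CTL and 4.99 ± 0.23 in H1299shRAD9 CTL, and its difference over all conditions was -0.00 (95% interval -0.31 to 0.30), with a sign that several alternatives turned. TGFB2, a second ligand of the same receptors (chr1:218614784-218614843), was dim. It was well above background on 44 of 50 arrays, and in H1299shRAD9 DBP on 2 of 5, so its lowest values are near the limit of measurement. Its difference over all conditions was 0.63 (SE 0.225, adjusted p = 0.0305), with an unadjusted p above the limit of 0.005. It was called in BP alone, where H1299 read -1.94, -0.87, -1.20, -1.44 and -2.03 and H1299shRAD9 0.10, 0.00, -0.78, -0.79 and -0.75. The groups did not overlap there, and the difference was 1.05 (SE 0.266, 2.08-fold, adjusted p = 0.0491). The call was lost without replicate 1, 3, 4 or 5, with normexp background correction, with the authors' values and with all groups in one fit.

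TGFBR1, the type I receptor kinase (chr9:101916322-101916381), was lower in H1299shRAD9 by means in all 5 conditions. The CTL samples read 1.35, 1.06, 1.00, 1.28 and 0.85 in H1299 and 0.33, 0.27, 0.87, 1.04 and 0.89 in H1299shRAD9. The groups overlapped, since H1299 replicate 5 was below 3 of the H1299shRAD9 samples. The difference was -0.43 in CTL (adjusted p = 0.104) and -0.36 over all conditions (SE 0.122, adjusted p = 0.0241), with an unadjusted p just above 0.005, and it was called with 75th percentile scaling, the authors' values, no replicate block or slide as a random block, and without replicate 3 or 5. TGFBR2, the ligand-binding type II receptor (chr3:30735163-30735222), ran from 4.65 to 5.75 over the 50 arrays with a difference over all conditions of -0.13 (95% interval -0.38 to 0.12). Its second probe (chr3:30703057-30703116) was above background on 8 arrays and was not tested.

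Among the SMAD genes none was called between the lines in CTL, in any other condition or over all conditions. SMAD3 (chr15:67487391-67487450) had the largest CTL difference of them, 0.30 (95% interval -0.01 to 0.61, adjusted p = 0.158). SMAD2 (chr18:45360188-45360247, minus strand) and SMAD4 (chr18:48605060-48605119) were higher in H1299shRAD9 in DBP by 0.63 (adjusted p = 0.116) and 0.54 (adjusted p = 0.155), short of the threshold. SMAD7, the inhibitory SMAD (chr18:46446782-46446841, minus strand), ran from 1.39 to 3.63 and differed by -0.19 in CTL (95% interval -0.79 to 0.42). In H1299 its highest sample was replicate 2 in each of the 5 groups, from 2.61 to 3.63. The median difference over the 9 genes was 0.16, against 0.13 over all features.

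**Figure D2:**
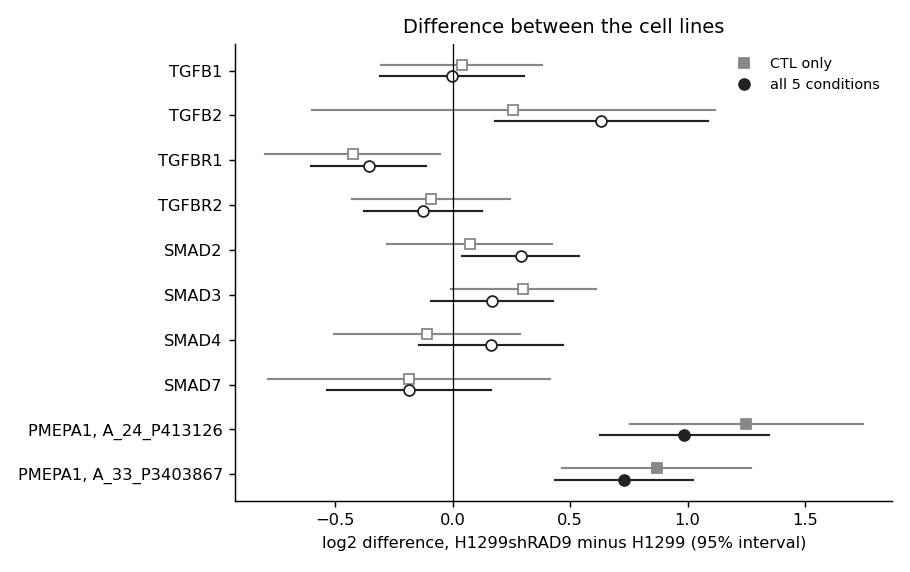
Difference between the cell lines (horizontal axis, log2, H1299shRAD9 minus H1299, with 95% intervals) for the 10 features tested, in CTL alone (squares) and over all 5 conditions (circles). Filled symbols passed the threshold. The 2 PMEPA1 probes lie between 0.73 and 1.25 and are the only filled symbols.

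SMAD3, which carries the TGF-β signal to DNA, fell in directly irradiated H1299shRAD9 cells. H1299shRAD9 CTL read 5.33, 5.36, 5.28, 5.35 and 5.12, DBP 4.69, 4.85, 4.77, 5.01 and 4.91, and DBN 4.75, 5.02, 4.84, 4.75 and 4.71 in replicate order. Every DBP and DBN sample was below every CTL sample, and how many of all features did the same was not counted. With replicates paired by number, SMAD3 fell by 0.44 in DBP (SE 0.093, adjusted p = 0.0979) and by 0.47 in DBN (SE 0.0858, adjusted p = 0.0608), to 0.737 and 0.721 of the CTL level. It was lower in 5 of 5 pairs in each, as were 5.39% and 5.93% of all features, and 1.3% and 2.93% of features were called, 0.563% and 0.902% as lower. DBP and DBN share the CTL samples. Each DBP array was scanned on the day of its CTL array, but DBN shared day and slide with CTL only in replicate 1. DBN replicates 2, 3, 4 and 5 were scanned on days 2, 3, 3 and 4, and their CTL arrays on days 1, 2, 2 and 3. In those pairs irradiation and scan day cannot be told apart, for SMAD3 or any other gene. In the bystanders the values were -0.27 in BP (adjusted p = 0.406) and -0.30 in BN (adjusted p = 0.315), each lower in 4 of 5 pairs, with 1.62% and 0.0299% of features called, and 18 of all 20 pairs were lower. Both calls in irradiated cells sat near the threshold: DBP was lost without replicate 2, 3, 4 or 5, with no replicate block, with slide as a random block and with the 1.3-fold criterion, DBN without replicate 1, 2, 3 or 4, and both with normexp background correction and with slide and replicate block together. Over all features the 261 DBP calls became 0, 5, 87 and 46 without replicate 2, 3, 4 or 5, and 23 with no replicate block. The 588 DBN calls became 167, 52, 26 and 32 without replicate 1, 2, 3 or 4. The 5′ to 3′ difference described above also differed between these groups: the H1299shRAD9 CTL arrays lay between -1.706 and -1.62, DBP between -1.632 and -1.532 and DBN, without overlap with CTL, between -1.583 and -1.477, and its part in the SMAD3 values, and in those of the listed genes after irradiation, was not tested.

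In H1299 cells SMAD3 was lower in 15 of 20 pairs, with differences of -0.08, -0.31, -0.28 and -0.15 in DBP, BP, DBN and BN, none called. Its H1299 CTL samples spread from 4.70 to 5.48, wider than in H1299shRAD9. The difference between the lines in the response was -0.36 in DBP (interaction, 95% interval -0.83 to 0.12, adjusted p = 0.676) and -0.20 in DBN (adjusted p = 0.998), so a difference in response was not shown.

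TGFB2 was lower after irradiation by the means of every group in both lines, without a call. In H1299 CTL it read 0.53, -0.16, -1.56, -0.81 and -1.06, and in DBP -0.85, -0.97, -2.15, -1.70 and -1.78. The H1299 differences were -0.88 in DBP (limma adjusted p = 0.221), -0.89 in BP (adjusted p = 0.823), -0.995 in DBN (adjusted p = 0.603) and -0.50 in BN (adjusted p = 0.993). DBP, DBN and BN were lower in 5 of 5 pairs, as were 4.79%, 4.43% and 4.8% of all features, BP in 4 of 5, and 19 of 20 in all, with the same 5 CTL samples in each. In H1299 1 array in each of DBP, BP and DBN was not well above background for TGFB2. In H1299shRAD9 the differences were -0.63, -0.09, -0.51 and -0.15 (16 of 20 pairs lower). The 4 H1299 comparisons called 0.0349%, 0%, 0.00996% and 0% of features, and none of the 10 here. At an unadjusted p under 0.05 they held 4, 1, 1 and 0 of the 10, against 5.57%, 5.68%, 3.24% and 3.4% of all features.

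**Figure D3:**
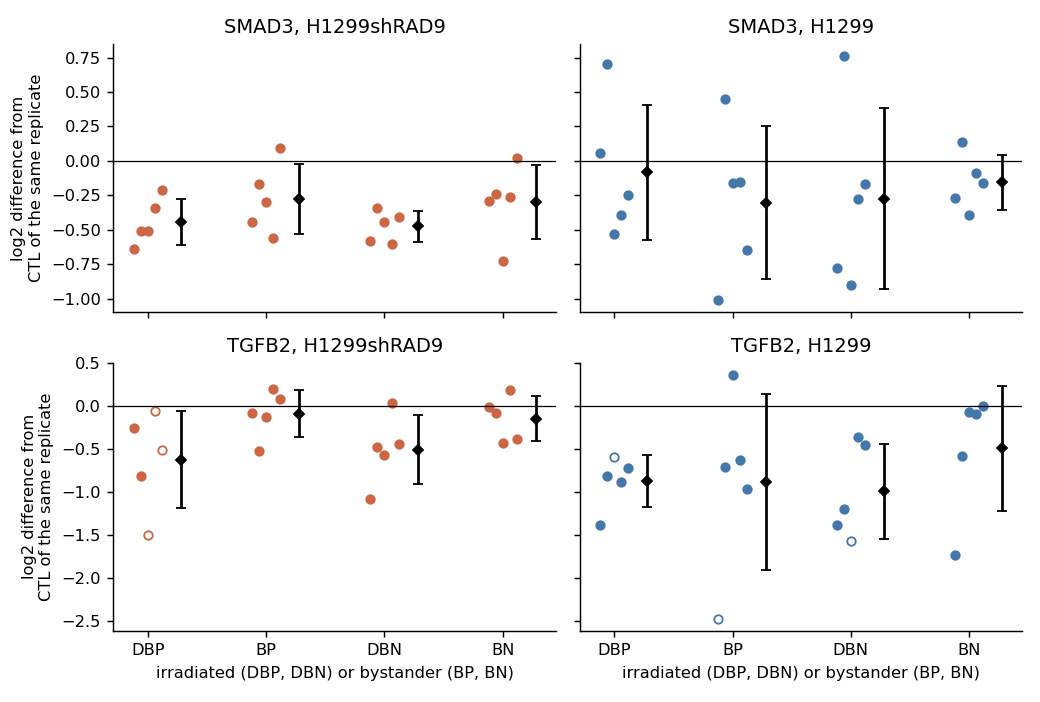
Difference of each sample from the CTL sample of the same replicate number (vertical axis, log2) for SMAD3 and TGFB2 in both lines. Points are the 5 pairs of a group, open points had a sample not well above background, diamonds are means and bars are SD. SMAD3 in H1299shRAD9 DBP and DBN lies below 0 in all pairs, and TGFB2 in H1299 lies below 0 in 19 of 20.

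The 2 PMEPA1 probes did not move alike with irradiation. In H1299shRAD9 DBN, A_24_P413126 was lower in 5 of 5 pairs (-0.54, adjusted p = 0.116), and A_33_P3403867 differed by 0.01. Over the 4 groups A_24_P413126 was lower in 14 of 20 pairs and A_33_P3403867 higher in 14 of 20. SMAD4 and SMAD2 in H1299 DBP were lower by 0.50 and 0.46 on average (both adjusted p = 0.795), whereas in H1299shRAD9 DBP they were higher by 0.14 and 0.09. The interaction was 0.65 for SMAD4 and 0.56 for SMAD2 (adjusted p = 0.63 for both), and none of the 10 features passed in any of the 4 interactions, in which no more than 0.0149% of all features passed. SMAD7, TGFB1, TGFBR1 and TGFBR2 were not called after irradiation in either line. Between DBP and DBN, and between BP and BN, limma called none of the 10 features in either line, and none had an unadjusted p under 0.05, against 0.473% and 0.364% of all features in H1299shRAD9 and 0.498% and 1.52% in H1299. These shares are far smaller than the limit of 0.05 itself, so these unpaired tests were conservative. With replicate number as a block, 0 of all features were called in each. The lack of calls does not show that positive and negative groups were alike.

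Replicates 1 and 2 of H1299shRAD9 stood apart from replicates 3 to 5 for 2 of the genes, a split seen only after the values were examined. For TGFBR1, replicates 1 and 2 were the 2 lowest samples in all 5 groups, for example 0.33 and 0.27 in CTL against 0.87, 1.04 and 0.89. For TGFB2 they were the 2 highest in all 5, for example 0.18 and 0.52 in CTL against -0.65, -0.99 and -0.83. PMEPA1 by A_24_P413126, SMAD7 and TGFBR2 had them highest in 4 of 5 groups. Over all features 14.2% had these replicates highest or lowest in every group of H1299shRAD9, against 0.802% in H1299. Of the 10 arrays of replicates 1 and 2, 7 were scanned on day 1, and 14 of the 15 others on days 2 and 3. Scan day, culture and the transfectant used cannot be told apart here. Without H1299shRAD9 replicates 1 and 2, an alternative chosen after the data were seen, the line differences over all conditions were 0.83 (adjusted p = 0.00118) and 0.68 (adjusted p = 0.000893) for the PMEPA1 probes, still called, and -0.15 for TGFBR1 and 0.20 for TGFB2. Without replicates 3 to 5 they were -0.67 for TGFBR1 (adjusted p = 0.00204), 1.28 for TGFB2 (adjusted p = 0.00126) and 0.48 for SMAD2 (adjusted p = 0.0448), all called. In that fit 2147 of 20069 features were called. TGFBR1 and TGFB2 were singled out by the place of replicates 1 and 2. Their larger differences in that fit follow from this choice and are no separate evidence.

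**Figure D4:**
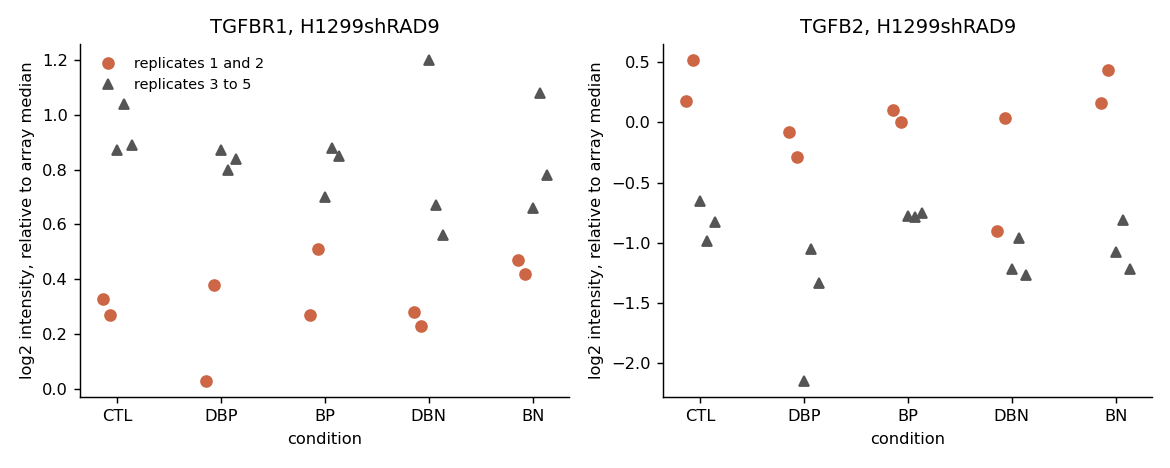
Level of TGFBR1 and TGFB2 (vertical axis, log2 intensity relative to the array median) in the 5 H1299shRAD9 groups. Circles are replicates 1 and 2 and triangles replicates 3 to 5. The circles lie below the triangles in every group for TGFBR1 and above them for TGFB2.

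Other genes of the pathway were taken from 5 lists of 80 genes, of which 68 were tested. Over all conditions 13 were higher and 7 lower in H1299shRAD9 (29.4% of 68, beside 21.4% of all features), with a share that depends on the block, as given in the closing section. Of the 68, 15 (22.1%) had H1299shRAD9 replicates 1 and 2 highest or lowest in all 5 groups, and 8 of these were among the 20 called (THBS1, LTBP3, BAMBI, FST, GDF15, MYC, ANGPTL4 and SNAI1). Without these replicates 3 of the 20 calls were lost (GDF15 at -1.71, SMAD1 at 0.31 and SMAD9 at -0.21), and 10 were lost without replicates 3 to 5 (ANGPTL4, BMP4, CYR61, LTBP3, MYC, RUNX1, SMAD1, SMAD5, SMURF1 and SNAI1, the lowest being LTBP3 at -0.0097 and SNAI1 at 0.086). Over all features the 4302 calls became 5359 without replicates 1 and 2, and 2147 without replicates 3 to 5. The losses among the listed genes are thus not particular to them. The calls among ligands and their release from latency were THBS1, thrombospondin-1, which activates latent TGF-β (1.36, SE 0.182, adjusted p = 1.69e-07), ITGB8, an integrin subunit with the same role (1.04, SE 0.145), and LTBP3, a latency-binding protein (-0.53), of 9 tested. THBS1 CTL samples ran from 3.72 to 5.13 in H1299 and from 5.14 to 6.30 in H1299shRAD9. THBS1 and ITGB8 lay higher without overlap in 5 of 5 conditions and were called in each, with THBS1 differences from 1.27 to 1.43. Of all features, 7.09% lay higher without overlap in CTL and 5.88% in BP. How many did so, or were called, in all 5 conditions was not counted.

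Among 8 receptors and coreceptors, BAMBI, a decoy receptor that lacks a kinase, was the only call. It read 2.54, 2.37, 3.30, 2.83 and 2.86 in H1299 CTL and 1.03, 1.24, -0.45, -0.19 and -0.60 in H1299shRAD9 CTL. The 5 H1299shRAD9 samples lay below all H1299 samples, with replicates 1 and 2 the highest of them. Over all conditions it differed by -2.83 (SE 0.192, adjusted p = 6.44e-16), to 0.141 of the H1299 level. FST, follistatin, which binds activins, differed by -2.52 (SE 0.191), and both were lower without overlap and called in 5 of 5 conditions, BAMBI by -2.58 to -3.08 and FST by -2.33 to -2.69. How many of all features were lower without overlap, or called lower, in all 5 conditions was not counted. GDF15, a stress-induced cytokine (-2.54), and BMP4, a BMP ligand (-0.67), were also called lower, so 3 of 7 activin and BMP genes were called lower and 0 higher, beside 7.81% and 13.6% of all features. FST is near the background in H1299shRAD9, where 3 of 5 CTL arrays measured it.

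Of 18 transducers and regulators, 4 were called higher and 1 lower, beside 13.6% and 7.81% of all features. SMURF2 (0.72) and SMURF1 (0.68), ubiquitin ligases that act on SMADs and receptors, SMAD5 (0.34) and SMAD1 (0.30), the SMADs of BMP signaling, were higher, and SMAD9 (-0.38), of the same branch, was lower. Of 26 target genes, 7 were called higher and 1 lower, beside the same shares. Among them, CTGF (1.00) and CYR61 (0.80), matrix-associated proteins, ANGPTL4, a secreted inhibitor of lipoprotein lipase (0.98), and the transcription factors MYC (0.86), RUNX1 (0.54) and SNAI1 (0.53) were higher, and ACTA2 (-0.73), smooth muscle actin, was lower. MYC is known to be repressed by TGF-β, unlike the other target genes named in this paragraph. In CTL alone 7 of the 68 were higher and 7 lower (20.6%, beside 13%).

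With scan day as a fixed term 10 listed genes remained called or became so, as did 10 with slide, beside 7.11% and 7.33% of all features. As for PMEPA1, these fits did not allow for likeness among samples of one line and replicate number. THBS1 (1.59 with scan day and 1.89 with slide), ITGB8 (1.43 and 1.49), CTGF (1.95 and 2.0), SMURF2 (1.19 and 1.23), MYC, CYR61, BAMBI (-2.95 and -2.66) and FST (-2.38 and -2.53) were called in both fits. GDF15, BMP4, SMURF1, ANGPTL4, LTBP3, SMAD9 and ACTA2 were not.

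**Figure D5:**
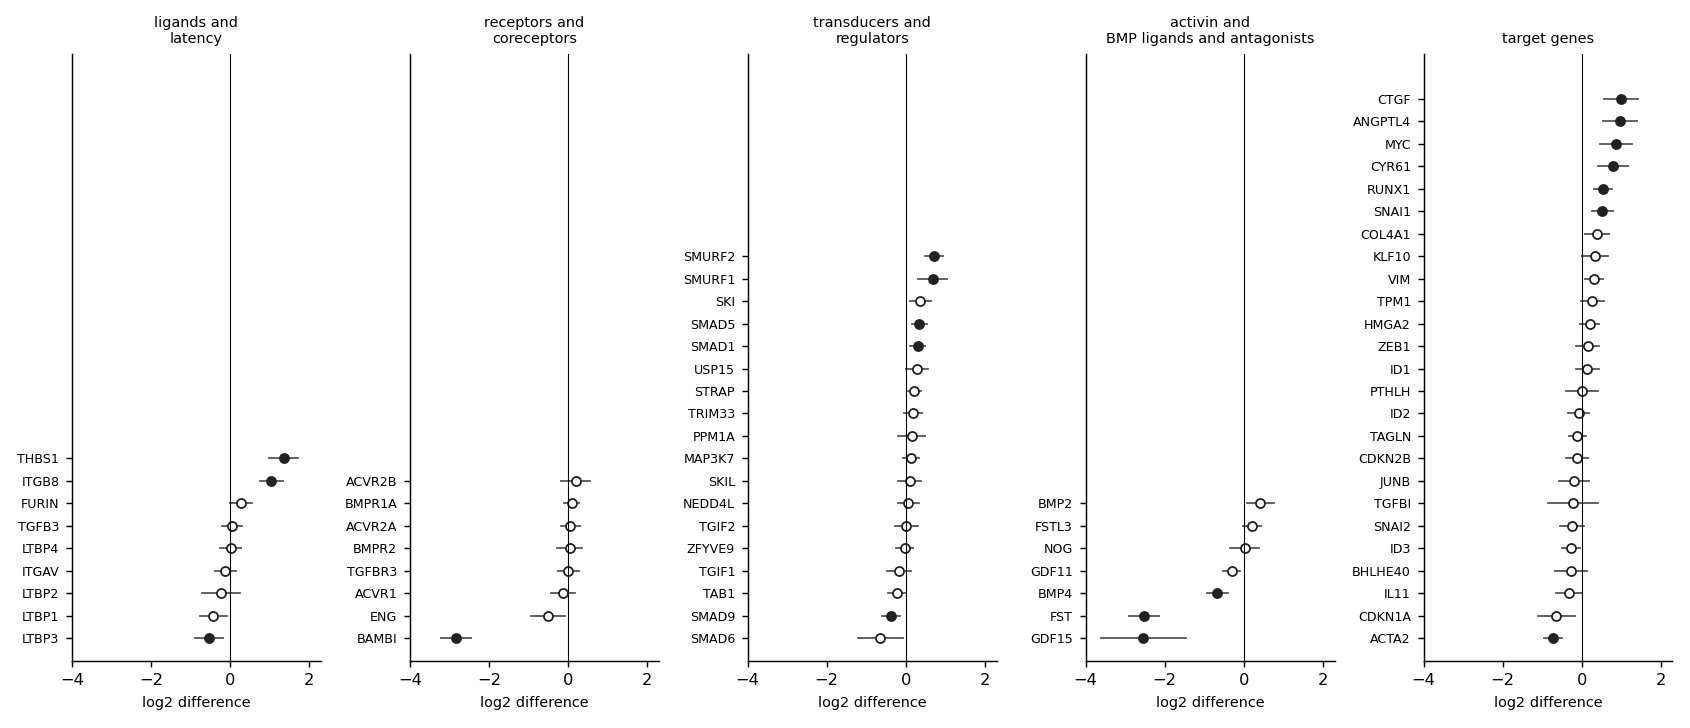
Difference between the cell lines over all 5 conditions (horizontal axis, log2, H1299shRAD9 minus H1299) for genes of the pathway lists that were tested, by list. Each symbol is 1 gene with its 95% interval, filled where it passed the threshold. BAMBI, FST and GDF15 lie farthest to the left, below -2.5, and THBS1 farthest to the right at 1.36.

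After irradiation the inhibitors of differentiation ID1, ID2 and ID3, transcription regulators that respond to BMP and TGF-β signals, were the listed genes called lower in H1299shRAD9 DBP. ID3 CTL samples read 4.28, 4.89, 4.17, 4.16 and 4.55 and DBP samples 3.72, 4.24, 3.47, 3.59 and 3.93, a fall in 5 of 5 pairs. The differences were -0.62 for ID3 (adjusted p = 0.0335), -0.58 for ID1 (adjusted p = 0.0468) and -0.55 for ID2 (adjusted p = 0.0782), against 0.563% of features called lower. In DBN the means of ID3, ID1 and ID2 differed by -0.53, -0.485 and -0.45, and in BN by -0.38, -0.36 and -0.51, none called, with ID3 and ID1 lower in 5 of 5 DBN pairs, and no listed gene was called in DBN or BN. In BP, ID2 fell by 0.54 (adjusted p = 0.0972) and GDF15 rose by 0.72 (adjusted p = 0.068). The DBP calls of ID1, ID2 and ID3 were lost without replicate 2, where 0 of all features were called. The BP calls of ID2 and GDF15 were lost without replicate 2, 4 or 5 and with no replicate block, each with 0 features called. With slide as a random block the 14 features called in BP were all higher, so the fall of ID2 was not called. In the other alternatives these genes were not followed singly. Over all features the 261 DBP calls became 5 without replicate 3, 23 with no replicate block and 12 with slide and replicate block together. In H1299 the ID3 differences were -0.96, -0.87, -0.62 and -0.46 in DBP, BP, DBN and BN, none called.

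Over the 50 arrays the 2 PMEPA1 probes correlated with r = 0.817, and with 0.643 after group means were removed. SMAD4 and SMAD2 correlated with r = 0.801 (0.763). The features most like PMEPA1 by A_24_P413126, among 19670 measured on all arrays, were CREBBP (r = 0.83), ADRA2C (0.824) and NFAT5 (0.812). Those most like SMAD3 were CTDSP2 (0.849), FZR1 (0.848) and MGA (0.84), those most like SMAD4 API5 (0.912), WRB (0.91) and CTCF (0.905), and those most like TGFB2 STRA6 (0.796), ZNF608 (0.793) and MCPH1 (0.791). The arrays share cell line, scan day and replicate, which enter these values.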

How the data were processed

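Per the file headers, Agilent Feature Extraction 11.5.1.1 made each deposited array file: the spot intensity had a spatially fitted background removed, and outliers and spots well above background were marked. The authors also deposited log2 values, background corrected and median normalized, for 9476 features, used here as an alternative. The number of arrays limits the precision.

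Of 43118 spots for 34127 features, those marked as non-uniform or population outliers were dropped. From the deposited processed intensities, log2 was taken, the array median subtracted and spots of a feature averaged. Features that failed on under 25% of arrays were kept (20078). The 1.3-fold criterion of the study's methods was an alternative, so that every gene measured could be tested.

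Groups were compared with limma 3.58.1 in R 4.3.3. Comparisons with CTL were blocked on the replicate number, after the matched samples of the study's methods. Same-numbered arrays, after group means were removed, correlated with means of 0.469 to 0.517 in H1299shRAD9 and 0.145 to 0.413 in H1299. The samples are described as independent, and p-values measure the spread between them. Between the lines this is the spread between samples of 2 transfectants and of the untransfected line, not between independent knockdowns. Variation between transfectants was not estimated. Code was tested on simulated data, with samples drawn as independent. Of 2-fold and 1.5-fold changes, 71% and 11% were recovered between the lines in CTL. The shares were 70% and 11% in H1299shRAD9 DBP, 29% and 3% for the DBP interaction, and 96% and 95% over all conditions. A missing call therefore does not show that a gene was unchanged. Alternatives covered scaling, background correction, filters, slide, scan day, pairing and each replicate left out.

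The genes described are every feature with a member's symbol, a gene standing by its brightest feature, and fixed pathway lists (ligands and latency, receptors, transducers, activin and BMP genes, targets). The members and lists were chosen with earlier results of these data known. PTPRC, PECAM1 and CD3E served as markers of other cells. One listed target gene and one marker, although part of the fits and counts, are not reported here.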

Additional observations from a re-analysis of the deposited data

Results flagged for a closer look

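In 5 of the 100 sets of 5 samples (10 features in 10 groups) 1 sample lay apart from the other 4, with a gap above 0.71 of the range of the group. Chance alone gives about 1 in 20 such sets. PMEPA1 by A_33_P3403867 read 2.97 in H1299 BN replicate 2, where the others read 1.3 to 1.56, and 2.90 in H1299shRAD9 CTL replicate 1, where the others read 2.05 to 2.23. SMAD3 read 4.55 in H1299shRAD9 BN replicate 3, below the 5.04 to 5.14 of the others. SMAD7 read 2.92 in H1299 BP replicate 2, above the 1.74 to 2.04 of the others. TGFB2 read 0.04 in H1299shRAD9 DBN replicate 2, above the -1.27 to -0.90 of the others.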

How the results depend on the processing

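Over all 5 conditions 2 of the 10 features were called, both of PMEPA1, and 5 with no replicate block, with slide as a random block, or without H1299shRAD9 replicates 3 to 5. In the same settings the 4302 calls over all features became 7892, 5427 and 2147. In CTL 2 were called, and 1 with the authors' values or with slide as a random block. Over DBP, BP, DBN and BN 4 line calls became 2 with normexp background correction, 1 with the authors' values and 1 to 7 with a replicate left out (7 without replicate 2, 1 without replicate 3 or 5), while the replicate block gave 6, and slide as a random block could not be fitted. Over all features the 1451 BP calls became 1596, 452 and 339 without replicate 2, 3 or 5. The 1198 DBP calls became 828, 314 and 303. The 2 calls after irradiation in H1299shRAD9, both of SMAD3, became 0 with normexp or with slide and replicate block together, 1 with the 1.3-fold criterion, no replicate block or slide as a random block, and 0 to 1 with a replicate left out (0 without replicate 2, 3 or 4). The 0 calls in H1299 became 1 with slide and replicate block, where 49 of all features were called in BP and 772 in DBN. The 20 listed genes called over all conditions became 34 with no replicate block and 10 with slide or scan day as a fixed block, and ran from 17 to 26 with a replicate left out. Over all features the calls were 1471 with slide and 1427 with scan day fixed, and ran from 2648 to 4927 with a replicate left out. The 14 called in CTL became 9 with all groups in one fit and 8 without H1299shRAD9 replicates 3 to 5, and ran from 7 to 13 with a replicate left out (7 without replicate 4, 9 without replicate 3). Over all features the 2605 CTL calls became 1648 with all groups in one fit and 1430 without H1299shRAD9 replicates 3 to 5. They became 1431 without replicate 4 and 1357 without replicate 3.

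Genes that were not called changed sign in places. Over all conditions SMAD7 was 0.42 with slide fixed, 0.48 with scan day fixed and 0.23 without H1299shRAD9 replicates 3 to 5. TGFB1 was 0.13 with normexp or without replicate 2, 0.029 without replicate 3, 0.015 without replicate 4 (from -0.13 without replicate 5), 0.079 with slide random, 0.58 with slide fixed, 0.71 with scan day fixed (called) and 0.12 without H1299shRAD9 replicates 1 and 2. TGFBR2 was 0.034 with normexp, 0.026 without replicate 3, 0.48 with slide fixed, 0.35 with scan day fixed and 0.15 without H1299shRAD9 replicates 3 to 5. In CTL TGFB1 was -0.0013 with quantile normalization, -0.12 with normexp, -0.025 with the authors' values, -0.0084 without replicate 2, -0.028 without replicate 5 and -0.10 without H1299shRAD9 replicates 3 to 5. SMAD2 was -0.057 with normexp and -0.079 without H1299shRAD9 replicates 1 and 2, SMAD4 0.018 without replicate 3 (from -0.20 without replicate 4), and TGFB2 -0.21 without H1299shRAD9 replicates 1 and 2. SMAD7 was 0.35 without H1299shRAD9 replicates 3 to 5, and TGFBR2 0.066 without replicate 3 (from -0.18 without replicate 2) and 0.061 without H1299shRAD9 replicates 3 to 5. Over all conditions SMAD4 was called with slide fixed, at 0.93 (adjusted p = 0.0364). The cause was not tested.

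Of the line calls over all features and conditions, 63.6% were higher in H1299shRAD9, 42.3% with 75th percentile scaling, 42.4% with quantile normalization, 72.6% with normexp and 27.2% with the authors' values. In CTL these were 53.2%, 26.6% with normexp and 36.5% with the authors' values, and normexp moved the median difference of all features from 0.06 to -0.06. The alternatives with slide or scan day fixed, and without named H1299shRAD9 replicates, were chosen after seeing the data. TGFB2 is limited by its signal over background.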
